A study of Homo sapiens with 3 samples.

Results

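ZNF148, ZNF281, MAZ, VEZF1 and PATZ1 encode C2H2 zinc finger proteins that bind G-rich DNA, and chromatin immunoprecipitation sequencing (ChIP-seq) peaks of Strawberry Notch 1 (SBNO1), TATA-box binding protein associated factor 4 (TAF4) and control immunoglobulin (IgG) were collected at these 5 of 19689 protein-coding genes. ZNF148 and ZNF281 were included because the study had singled them out as candidate SBNO1 partners with sites in its peaks, and MAZ, VEZF1 and PATZ1 because they bind like sequences. For each gene, every peak within 1 kb of an annotated protein-coding transcription start site (TSS), in the gene body and within 50 kb of the gene was taken. This gave 11 of 16147 SBNO1 peaks, 7 of 12763 TAF4 peaks and 1 of 1598 IgG peaks. All libraries came from HuCCT1, a cell line established from a cholangiocarcinoma, a cancer of the bile ducts, and no treatment or genetic change is named for any of them. There was 1 library per antibody, made from pooled immunoprecipitates, so no replicate error could be estimated, no difference was tested, and the values describe these 3 libraries.

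C2H2 zinc fingers are small domains held by a zinc ion that stand in tandem, each reading a few bases of the major groove. ZNF148 and ZNF281 are close relatives of the Krüppel type that bind GC-rich promoter elements and can activate or repress. MAZ was described as a factor of the MYC promoter, VEZF1 as an endothelial factor that binds runs of G, and PATZ1 joins its zinc fingers to a BTB domain and an AT-hook. In promoters, such factors recognise G-rich stretches similar to those of the SP and KLF families. TAF4 is a subunit of TFIID, the complex that places RNA polymerase II at the TSS.

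Sequences under peaks are shown first, followed by those before the TSS of the genes without a promoter peak. All were read from GRCh38 on the strand of the gene, 5′ to 3′, and untranslated regions were left out. Capitals mark exact matches, on either strand, of GGGGAGGG (the ZNF148, ZNF281 and MAZ consensus), of its core GGGAGG, of GGGGGG and of the GC box GGGCGG. The first 3 sequences lie in promoter peaks, namely the bases of the ZNF148 TAF4 peak before the TSS (chr3:125375326-125375522, of which the last 100 bases are also in the SBNO1 peak), those of the ZNF281 SBNO1 peak before the TSS (chr1:200410057-200410221) and the whole SBNO1 peak upstream of MAZ (chr16:29805478-29805742). The fourth is the SBNO1 peak inside PATZ1 (chr22:31343384-31343577). The untranslated parts left out also held matches of GGGAGG. The whole ZNF148 peaks had 2 (SBNO1) and 1 (TAF4), and their printed parts 0. The whole ZNF281 SBNO1 peak had 3, and its printed part 2.
ZNF148: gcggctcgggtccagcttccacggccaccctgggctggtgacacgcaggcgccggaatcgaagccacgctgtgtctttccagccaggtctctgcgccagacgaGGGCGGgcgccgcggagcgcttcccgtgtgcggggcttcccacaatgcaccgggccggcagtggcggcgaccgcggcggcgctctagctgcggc
ZNF281: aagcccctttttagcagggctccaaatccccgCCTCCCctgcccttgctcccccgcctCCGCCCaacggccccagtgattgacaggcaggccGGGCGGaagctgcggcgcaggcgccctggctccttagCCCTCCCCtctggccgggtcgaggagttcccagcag
MAZ: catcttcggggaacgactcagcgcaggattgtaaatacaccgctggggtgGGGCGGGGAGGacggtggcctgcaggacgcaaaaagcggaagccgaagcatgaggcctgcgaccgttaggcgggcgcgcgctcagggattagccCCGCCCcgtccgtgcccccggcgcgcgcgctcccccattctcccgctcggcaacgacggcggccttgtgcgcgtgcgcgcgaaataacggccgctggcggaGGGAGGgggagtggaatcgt
PATZ1: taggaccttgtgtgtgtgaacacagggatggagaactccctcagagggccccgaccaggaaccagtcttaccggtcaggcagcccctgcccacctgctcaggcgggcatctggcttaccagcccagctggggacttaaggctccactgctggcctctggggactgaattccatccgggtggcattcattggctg

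For comparison, the 250 bases before the first annotated TSS are given for the genes without a promoter peak, VEZF1 (chr17:57988260-57988509) and PATZ1 (chr22:31346347-31346596). Both hold long runs of G.
VEZF1: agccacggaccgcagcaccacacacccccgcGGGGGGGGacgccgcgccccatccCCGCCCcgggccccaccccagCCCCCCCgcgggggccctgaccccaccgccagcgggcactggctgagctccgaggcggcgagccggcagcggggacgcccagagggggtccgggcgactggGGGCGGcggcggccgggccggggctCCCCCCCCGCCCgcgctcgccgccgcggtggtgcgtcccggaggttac
PATZ1: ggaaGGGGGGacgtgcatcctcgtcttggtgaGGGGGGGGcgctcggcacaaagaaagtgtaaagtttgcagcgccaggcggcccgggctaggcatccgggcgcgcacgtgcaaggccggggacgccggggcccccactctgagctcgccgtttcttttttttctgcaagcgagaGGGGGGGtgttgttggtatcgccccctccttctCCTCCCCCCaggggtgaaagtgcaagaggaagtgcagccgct

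To see which of the genes carried a promoter peak, peaks within 1 kb of any of their TSS were counted. SBNO1 peaks were listed at ZNF148, ZNF281 and MAZ, 3 of the 5 genes, where 25.7% of all protein-coding genes had one. TAF4 peaks were listed at ZNF148 and MAZ, 2 of the 5, compared with 31.9% of all genes. No IgG peak was listed at any of the 5, with 1.41% of all genes marked. Both SBNO1 and TAF4 were thus listed at 2 genes (22.6% of all genes), SBNO1 without TAF4 at ZNF281 (3.08%), and neither protein at VEZF1 and PATZ1 (65.0%). With only 5 genes, counts of 3 and 2 cannot be told from these shares.

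**Figure D1:**
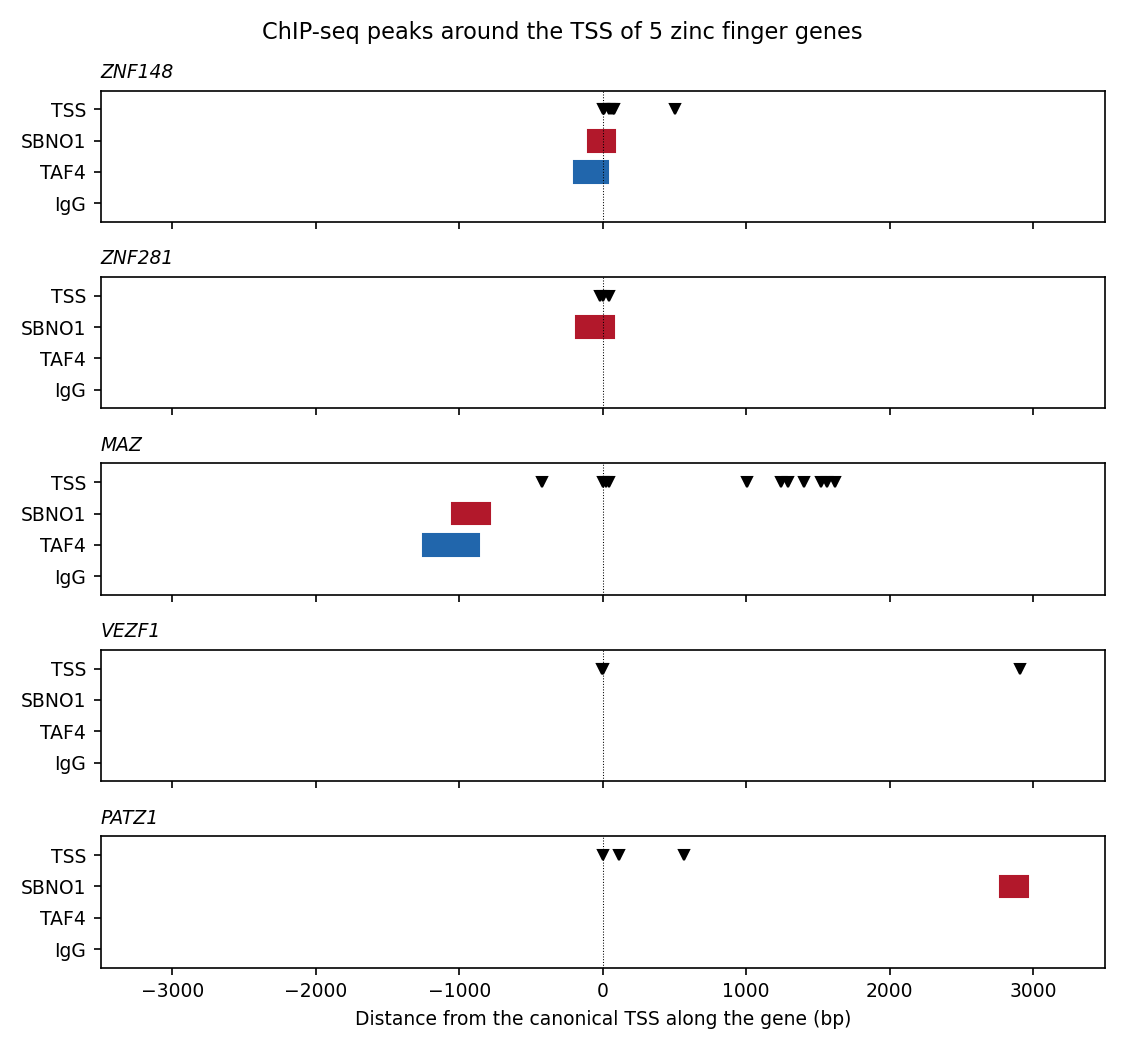
Peaks of the SBNO1, TAF4 and IgG lists (bars, drawn to scale) and annotated protein-coding TSS (triangles) from 3.5 kb before to 3.5 kb after the canonical TSS of each gene, in bp along the gene. The peaks of ZNF148 and ZNF281 cover TSS, those of MAZ end 364 and 440 bp before its first TSS, VEZF1 has none, and the PATZ1 peak lies 2199 bp downstream of the nearest TSS.

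At ZNF148 (ENSG00000163848.21, chromosome 3, 125225669 to 125375325, minus strand) an SBNO1 peak of 185 bp reached from 125375241 to 125375425. The TAF4 peak, of 234 bp, reached from 125375289 to 125375522, and each had the highest score of 1000, a value shared by 34.6% of SBNO1 and 43.0% of TAF4 peaks. The proteins shared 137 bp, which was 74.1% of the SBNO1 and 58.5% of the TAF4 peak. Of the 9 protein-coding TSS of ZNF148, the SBNO1 peak covered 6 and the TAF4 peak covered 2. The centre of the SBNO1 peak lay at -8 bp and that of the TAF4 peak at -80 bp from the canonical TSS, negative values being upstream, so that SBNO1 was centred 72 bp further into the gene. Both peaks also covered the TSS of ENSG00000289324, a long noncoding RNA (lncRNA) of the opposite strand that starts 47 bp upstream of ZNF148 at position 125375372, so the peaks cannot be given to either transcript alone. Of the starts that the SBNO1 peak left uncovered, that at 125374818 lay 423 bp from it and 471 bp from the TAF4 peak, and those at 125357280 and 125357818 lay 17961 and 17423 bp from the SBNO1 peak.

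The ZNF281 gene (ENSG00000162702.8, chromosome 1, 200404940 to 200410056, minus strand) differed in that it had an SBNO1 but no TAF4 promoter peak. The SBNO1 peak reached from 200409959 to 200410221, was 263 bp wide, had a score of 865 and covered all 3 TSS, with its centre at -54 bp from the canonical one. The nearest TAF4 peak was 37517 bp away. Among all SBNO1 peaks within 1 kb of a TSS, 83.8% overlapped a TAF4 peak. A score of 865 was higher than that of 49.5% of the SBNO1 list, so this peak was neither among the weakest nor at the cap. Whether TAF4 fell below the threshold of the peak caller there cannot be read from a list of peaks.

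MAZ (ENSG00000103495.15, chromosome 16, 29806106 to 29811164, plus strand) had both peaks, but neither covered a TSS. The SBNO1 peak (29805478 to 29805742, 265 bp, score 851) ended 364 bp before the first of 11 TSS, and the TAF4 peak (29805273 to 29805666, 394 bp, score 604) ended 440 bp before it. From the canonical TSS at 29806529 the peak edges were 787 and 863 bp away. Only 7.04% of genes with an SBNO1 promoter peak had it over 300 bp from each TSS, and 3.84% of those with a TAF4 peak, whereas 84.6% and 90.4% had a TSS covered. The interval between MAZ and the upstream gene KIF22, a kinesin, is 720 bp long. The SBNO1 peak lay wholly inside it, and the TAF4 peak reached 113 bp into the end of KIF22. Centres of both peaks were 141 bp apart and the peaks shared 189 bp, 71.3% of the SBNO1 and 48.0% of the TAF4 peak. The lncRNA ENSG00000275857 on the minus strand also starts within 1 kb of both peaks.

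PATZ1 (ENSG00000100105.18, chromosome 22, 31325804 to 31346346, minus strand) had no peak within 1 kb of its 3 protein-coding TSS. A single SBNO1 peak was listed inside the gene, from 31343384 to 31343577, with a width of 194 bp and a score of 1000. It lay in an intron of the protein-coding transcripts, 2199 bp downstream of the nearest of their TSS. An annotated PATZ1 transcript with a retained intron starts at 31343591, 14 bp upstream of this peak. Of the 14632 genes without an SBNO1 peak within 1 kb, 3.61% had one within 3 kb. No TAF4 peak lay within 50 kb of PATZ1, the nearest one (53044 bp from the canonical TSS) being just outside that limit.

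For VEZF1 (ENSG00000136451.9, chromosome 17, 57971547 to 57988259, minus strand) no peak of any library was listed within 1 kb of its 4 TSS or in the gene body. Chromosome 17 as a whole was rich in peaks, with 35.4% of its genes (95% Clopper-Pearson interval 32.6% to 38.2%) carrying an SBNO1 promoter peak. By contrast, MAZ lies on chromosome 16, where 8.19% of genes (interval 6.42% to 10.2%) had an SBNO1 and 18.9% (interval 16.3% to 21.7%) a TAF4 promoter peak. For chromosomes 3, 1 and 22 of the other genes, the SBNO1 shares were 29.0%, 28.8% and 18.7%. These intervals, like all below, cover counting error only and treat genes as independent, which neighbouring genes are not.

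The width and score of the promoter peaks were set beside those of all promoter peaks of the same list. All 3 SBNO1 peaks were narrow. The ZNF148 peak was wider than 2.02% of the 4791 SBNO1 peaks near a TSS, the MAZ peak than 14.4% and that of ZNF281 was of nearly the same width (265 and 263 bp), the median of all being 420 bp. Of the 6042 TAF4 peaks near a TSS, with a median of 418 bp, 8.33% were narrower than that of ZNF148 and the MAZ peak of 394 bp lay close to the median. The scores were close to the middle of the list at ZNF281 and MAZ for SBNO1, with 51.9% and 50.1% of promoter peaks below them. For TAF4 at MAZ, 9.27% of promoter peaks had a lower score. The score is a whole number capped at 1000 whose scaling is not given in the sources used here, so it only ranks peaks within a list.

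**Figure D2:**
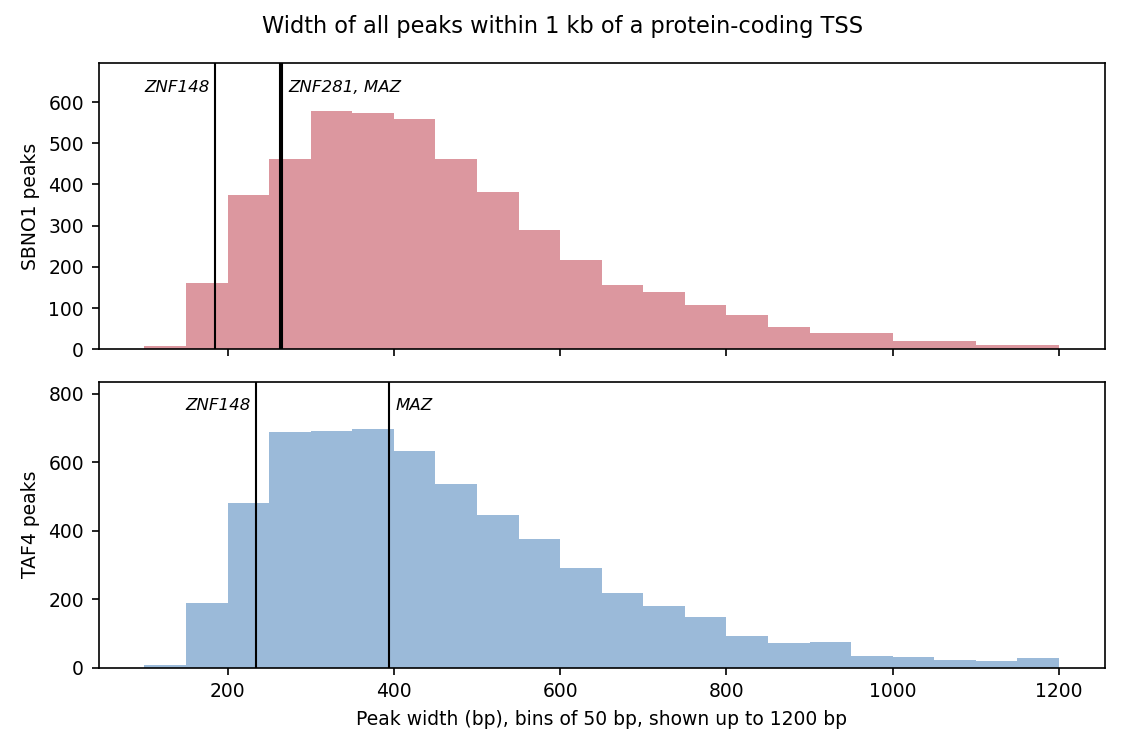
Number of SBNO1 (top) and TAF4 (bottom) peaks within 1 kb of a protein-coding TSS by width in bp, in bins of 50 bp, with the promoter peaks of the named genes as vertical lines. The SBNO1 peaks of ZNF148, ZNF281 and MAZ (185, 263 and 265 bp) lie left of the median of 420 bp.

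Next, peaks in the gene bodies and flanks were examined. ZNF148 is the longest of the genes, and its window of 250 kb held only the promoter peaks, 1 each of SBNO1 and TAF4. Among 1279 genes of like length (within a factor of 1.25), 34.9% had an SBNO1 and 23.8% a TAF4 peak in the body away from the TSS, while 14.8% and 9.91% of all genes had one. PATZ1 was the single gene of the 5 with such a body peak, of SBNO1. Flank peaks were found at ZNF281, MAZ and VEZF1 for both proteins, 3 of 5 genes, compared with 48.9% of all genes for SBNO1 and 47.1% for TAF4. An IgG peak stood in the flanks of VEZF1 alone (4.77% of all genes).

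**Figure D3:**
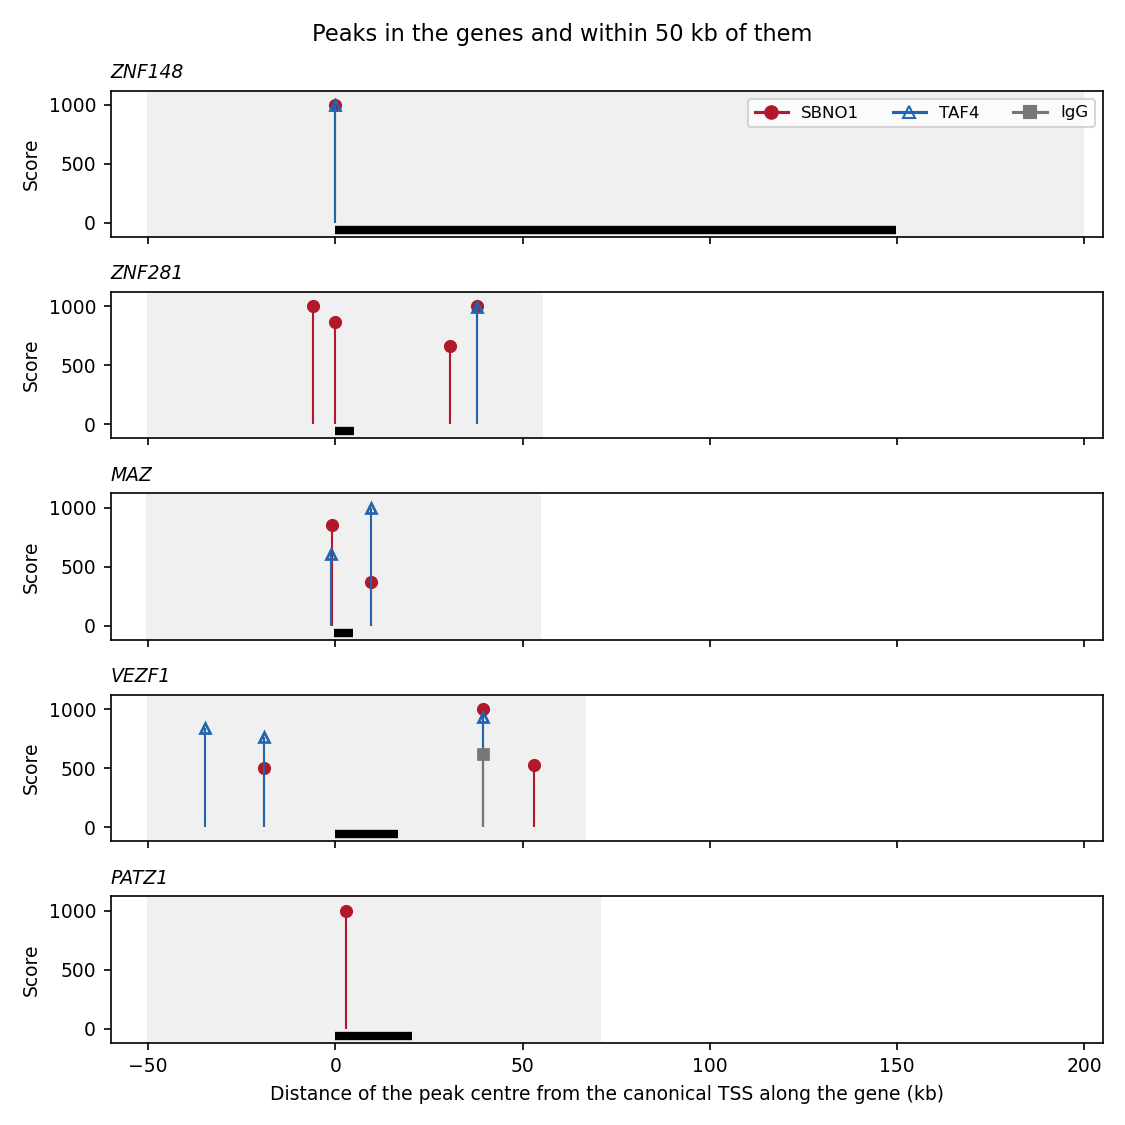
Centre of each peak in kb from the canonical TSS along the gene (x axis) against the authors' score (y axis), for SBNO1 (filled circles), TAF4 (open triangles) and IgG (squares). Grey shading marks the window of the gene with 50 kb to either side and the black bar the gene. ZNF281 has 4 SBNO1 peaks and 1 TAF4 peak, VEZF1 has 3 of each with 1 IgG peak, and ZNF148 and PATZ1 have no flank peaks.

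In the ZNF281 window, 4 SBNO1 peaks were listed, more than at 85.7% of all genes, whose median was 1. Of these 4 peaks, 1 overlapped a TAF4 peak. The overlap over all SBNO1 peaks away from a TSS was not computed, so this count has no reference. No other protein-coding TSS lay in the window, and the lncRNA gene ENSG00000230623 spanned all of the peaks. A peak of 384 bp with a score of 1000 lay 5891 bp upstream of the gene (200415947 to 200416330), without TAF4. Downstream, in the lncRNA LINC00862, a peak from 200379344 to 200379779 had a score of 662 and no TAF4, while the peak from 200372142 to 200372435, 32505 bp from ZNF281, had a score of 1000 and shared 255 bp with a TAF4 peak of score 995. The flank peaks differed in composition from the promoter peak, with GC contents of 34.4%, 38.8% and 42.9% in the order given, against 65.8%.

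The MAZ window held 5 other protein-coding genes with a TSS, ZG16, KIF22, PRRT2, PAGR1 and MVP. Of these, PAGR1, which encodes a subunit of histone methyltransferase complexes, had promoter peaks. Its SBNO1 peak (29815662 to 29816222) was 561 bp wide with a score of 366, which was lower than that of nearly the whole SBNO1 list, as 0.743% of it ranked below. The TAF4 peak (29815904 to 29816158) lay entirely inside it and had a score of 1000. At MAZ itself, the SBNO1 promoter peak ranked above 47.6% of its list and the TAF4 promoter peak above 12.9%. KIF22 had no peak at its own TSS.

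The VEZF1 window held 3 SBNO1 and 3 TAF4 peaks, and its nearest bound promoter was that of SRSF1, which encodes a splicing factor. There, an SBNO1 peak of 1473 bp (58006520 to 58007992, score 504) was wider than 99.4% of its list and covered the SRSF1 TSS together with a TAF4 peak of 741 bp (score 761). In an intron of CUEDC1, an SBNO1 peak (57948553 to 57949220, score 1000), a TAF4 peak (score 936) and an IgG peak (57948649 to 57948978, score 616) overlapped. This was the only IgG peak near any of the 5 genes, and IgG covered 49.4% of the SBNO1 peak there. The remaining peaks were found in 1 list each, for SBNO1 also in CUEDC1 (57935102 to 57935522, score 527) and for TAF4 between genes (58022996 to 58023265, score 843). The promoter peaks of CUEDC1 lay outside the window.

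The AP-1 consensus, TGACTCA or its reverse complement TGAGTCA, was searched in the same peaks, because it is frequent in SBNO1 peaks away from TSS (49.4% of the 11356 whole peaks over 1 kb from a TSS, and 12.1% of those within 1 kb). None of the 3 SBNO1 promoter peaks and not the PATZ1 peak held it. Of the 7 SBNO1 flank peaks, 2 did, those in LINC00862 near ZNF281 and in CUEDC1 near VEZF1. Both also overlapped a TAF4 peak, and the second an IgG peak. The flank peaks without a match included those over the TSS of PAGR1 and SRSF1. Those fall in the class within 1 kb of a TSS, not in that of the 11356 peaks. The matches lie 4 and -155 bp from the centre of the SBNO1 peak and are shown in capitals on the plus strand, with 20 bases to either side (chr1:200372269-200372315 and chr17:57948708-57948754).
LINC00862: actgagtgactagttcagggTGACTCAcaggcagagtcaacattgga
CUEDC1: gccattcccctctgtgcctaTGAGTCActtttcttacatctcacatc

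G-rich matches were then counted in promoters, from 250 bp before to 50 bp after the canonical TSS, to see whether the genes of G-rich binders carry such sequence themselves. GGGGAGGG occurred at ZNF281 (1 match) and MAZ (2 matches), and not at ZNF148, VEZF1 or PATZ1. It was present in 17.7% of the promoters of all protein-coding genes. At ZNF281, the match lay inside the SBNO1 peak, as 11.4% of SBNO1 promoter peaks of 150 to 300 bp held one. At MAZ, the SBNO1 and TAF4 peaks lay upstream of the counted window, so its matches could not lie in them. Neither of these peaks held a match of its own.

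Runs of G followed another order. GGGGGG, counted at each overlapping start on both strands, was found 8 times in the VEZF1 and 7 times in the PATZ1 promoter, once at most in the others (1 at ZNF148, 1 at MAZ, 0 at ZNF281), and in 23.1% of all promoters. The GC box GGGCGG was found 7 times at MAZ, 3 times at VEZF1, 2 times at ZNF281, 1 time at ZNF148 and not at PATZ1, and in 61.6% of all promoters. The genes with the most runs of G in this window were the ones without a promoter peak. Within 500 bp to either side of the TSS the contrast was smaller, with 21 matches of GGGGGG at PATZ1 and 18 at VEZF1. MAZ had 13, ZNF148 had 6 and ZNF281 had 0, and 51.9% of all promoters held a match. The shares there were 51.6% of genes with an SBNO1 promoter peak and 51.2% of those with neither protein.

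The GC content of the promoters was 68.0% at ZNF148, 63.3% at ZNF281 and 66.3% at PATZ1, compared with a median of 63.7% over all genes. Within 500 bp to either side of the TSS, PATZ1 had 74.4%, more than 93.7% of all genes. MAZ, with 88.0%, and VEZF1, with 82.7%, exceeded 99.9% and 98.4% of all promoters. The share of genes with a listed peak was lower among such promoters than among those of 60 to 70% GC. Among 838 genes with a promoter GC content of 80% or more, 12.5% (interval 10.4% to 15.0%) had an SBNO1 and 14.8% (interval 12.5% to 17.4%) a TAF4 promoter peak. In the 6612 genes of 60 to 70% GC, 34.8% had an SBNO1 peak (interval 33.7% to 36.0%) and 42.4% a TAF4 peak (interval 41.2% to 43.6%). The share with a peak that covered the canonical TSS fell further, to 1.79% (interval 1.01% to 2.94%) for SBNO1 and 5.37% (interval 3.94% to 7.12%) for TAF4 at 80% GC or more, compared with 27.4% and 36.7% at 60 to 70%. In the IgG list, 1 of these 838 genes (0.119%) had a promoter peak, and 2.07% of the genes of 60 to 70% GC. Low shares were not confined to the class of 80% or more. Under 50% GC, 9.98% of genes (interval 8.95% to 11.1%) had an SBNO1 and 9.91% (interval 8.89% to 11.0%) a TAF4 promoter peak. The part of base composition in the uncovered TSS of MAZ and VEZF1 was not tested.

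**Figure D4:**
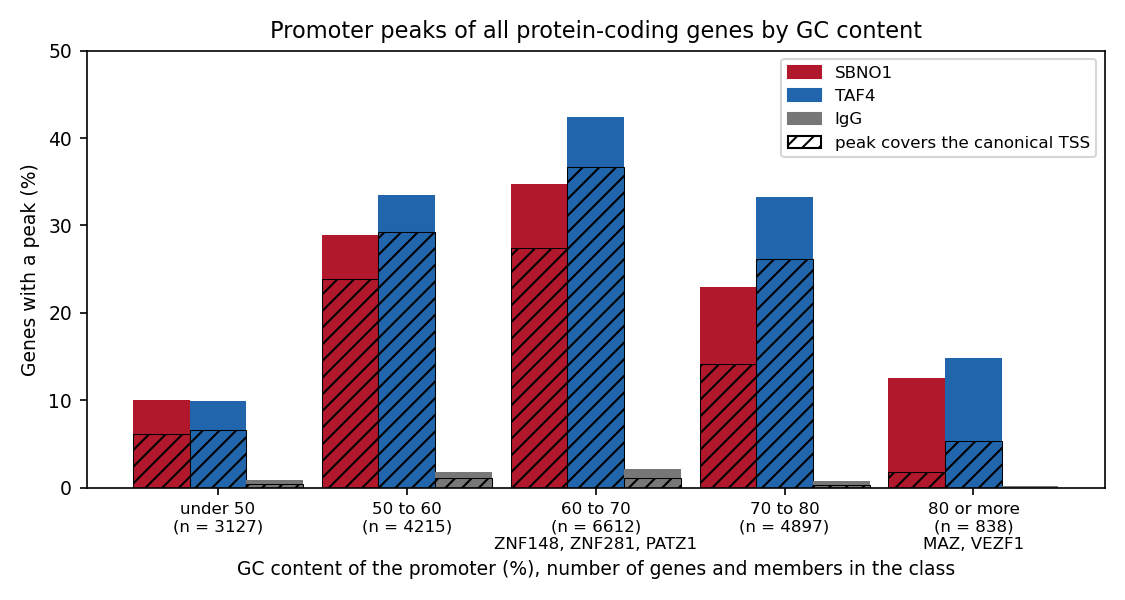
Percent of protein-coding genes with a peak within 1 kb of a TSS (full bars) and with a peak that covers the canonical TSS (hatched part), for each library, by GC content of the promoter from 250 bp before to 50 bp after the canonical TSS. The class of 80% or more, which holds MAZ and VEZF1, has an SBNO1 share of 12.5%, and 1.79% with the TSS covered.

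Genes with a peak pattern like that of the named genes were sought over 120 bins of 50 bp, from 1000 bp before to 1000 bp after the canonical TSS in the 3 libraries, by the Jaccard index of covered bins. For ZNF148, 4 genes reached 0.90, the first by name being ANKRD13C, DOLK and WDR33. For MAZ the index was 0.89 with CSNK1E and 0.88 with SGSM2, and EFEMP2 was the first by name of the genes at 0.80, a value that 5 genes reached or exceeded. Both MAZ peaks crossed the edge of the window at 1000 bp before the TSS. They ran from -1256 to -863 bp (TAF4) and from -1051 to -787 bp (SBNO1), and only the parts inside were compared. For ZNF281, 20 genes reached an index of 1, the first by name being APOBEC3C, BCAT2 and BRAP. The index rests on 9, 8 and 6 covered bins, respectively, and compares positions of peaks only.

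A wider list of 13 C2H2 factors with G- or C-rich sites was examined in the same way. SBNO1 promoter peaks were listed at 5 of them (SP1, EGR1, ZBTB7B, ZNF740 and CTCF), compared with 25.7% of all genes. TAF4 peaks were listed at the same 5 genes plus SP3 and ZNF263, compared with 31.9% of all genes. The remaining 6, WT1, RREB1, ZBTB7A, ZNF219, ZNF467 and CTCFL, had neither (65.0% of all genes). Whether these counts differ from the shares was not tested. SP1, which binds the GC box, had 2 SBNO1 peaks, of which the peak over the TSS had a score of 798, and was the only gene of the list with an IgG promoter peak (747 bp wide, score 1000). That IgG peak (53379429 to 53380175) overlapped both SBNO1 peaks and the TAF4 peak of SP1. CTCF, the insulator protein, lies on chromosome 16 as MAZ does, and its SBNO1 peak of 618 bp (score 515) and TAF4 peak of 434 bp (score 526) covered a TSS. ZBTB7B resembled MAZ in that its SBNO1 peak (223 bp, score 1000) and TAF4 peak (244 bp, score 1000) stayed 300 and 316 bp off the nearest TSS. SBNO1 without TAF4, as at ZNF281, was seen at 0 of the 13 genes (3.08% of all genes), and TAF4 without SBNO1 at 2 of them (9.29% of all genes).

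The label of the cell line was compared with marker genes, although a promoter peak is not a measure of expression. Among genes of biliary epithelium, TAF4 peaks were listed at KRT7, KRT19, EPCAM and SOX9, and SBNO1 peaks at KRT19, EPCAM and SOX9. No promoter peak was listed at 3 hepatocyte genes (ALB, APOA1 and TTR), at 2 leukocyte genes (PTPRC and CD3E) or at PECAM1 of endothelium. COL1A1, a gene of fibroblasts, had peaks of both proteins. Over all protein-coding genes, 25.7% had an SBNO1 and 31.9% a TAF4 promoter peak, and 65.0% had neither. With so few genes, the label was not tested.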

How the data were processed

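ChIP-seq had been carried out in HuCCT1 cells with antibodies against SBNO1 and TAF4 and with IgG as control. Per the methods of the study, chromatin was crosslinked, the precipitated DNA from separate biological replicates was combined per antibody, and it was sequenced as single-end reads of 50 bases. The reads were trimmed with ktrim and aligned to GRCh38 with bowtie2. The methods name normR as peak caller, whereas the processing notes of the submitters list Genrich 0.6.1 beside Bowtie2 2.5.4, so which program wrote the lists is not settled. By the 1 kb rule, the lists gave 5057 SBNO1 and 6280 TAF4 genes, with 29.7% and 47.3% of peaks near a TSS. The study reported far fewer bound promoters for both proteins, and larger shares of peaks near a TSS. The counts given here therefore describe the deposited lists and are not the published counts of the study. The threshold, the treatment of duplicate reads and the use of IgG in the calls are not given in the sources used here. The deposited score of each peak is a whole number capped at 1000. Read numbers are not in the lists, so the depth is unknown.

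Peaks were read with Python 3.11.15 and pandas 2.3.3, sequence with pysam 0.24.0. Distances ran from the nearest edge of a peak to the 78567 protein-coding TSS of GENCODE 44. A peak counted for each gene in reach, and an overlap of 1 bp counted as shared. Genes named besides the 5 were those with a TSS near their peaks, hosts of flank peaks, the 3 most similar by peak position, and fixed lists of 13 factors and of cell type markers, of which 1 is not reported here. The genes and lists were chosen with earlier results of these data known. With 1 library per antibody no test was run. The functions were tested on simulated data. Alternatives covered other TSS sets, distances, score filters, IgG removal, flanks and motif windows.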

Additional observations from a re-analysis of the deposited data

How the results depend on the processing

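No paired analysis was possible because there was a single library for SBNO1, TAF4 and IgG each. Of 41 values under an alternative, 29 stayed within 1.5 times the main count and 12 moved. Among peaks at or above the median score of their list, and likewise among peaks at the score cap, members with a promoter peak fell from 3 to 1 for SBNO1 and from 2 to 1 for TAF4, ZNF148 in each case. The shares of all genes fell as well, from 25.7% and 31.9% to 13.1% and 19.6% with the median filter and to 9.14% and 17.3% at the cap. The peaks in the windows fell from 11 to 5 for SBNO1, from 7 to 4 for TAF4 and from 1 to 0 for IgG with the median filter, by construction. A flank of 100 kb raised them to 18 for SBNO1 and 13 for TAF4. With a reciprocal overlap of 50%, 1 SBNO1 promoter peak overlapped TAF4 instead of 2, since the MAZ peaks no longer counted. Members with GGGGAGGG rose from 2 to 4 in windows of 500 bp to either side of the TSS and also with the core GGGAGG, VEZF1 being the exception in both, while the share of all promoters rose from 17.7% to 37.3% and 58.0%. With TSS of all transcripts, or within 3 kb, PATZ1 joined the SBNO1 genes. Peaks listed are those that passed the unknown threshold, and a gene without one may lie just below it.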

Other observations

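Across all protein-coding genes, promoters that held GGGGAGGG had a lower share with an SBNO1 promoter peak than the others. The difference was not tested, as there was 1 library. Of 3483 genes with a match, 22.6% (95% Clopper-Pearson interval 21.2% to 24.1%) had an SBNO1 peak, and of 16206 without, 26.3% (interval 25.7% to 27.0%). For TAF4 the shares were 28.5% and 32.6%. Within promoters of 60 to 70% GC, the class of ZNF148, ZNF281 and PATZ1, the SBNO1 shares were 27.9% with a match (interval 25.5% to 30.5%) and 36.4% without (interval 35.1% to 37.7%). At 80% GC or more, the class of MAZ and VEZF1, they were 12.4% and 12.6%, with overlapping intervals. Under 50% GC the order was the other way round, with 13.1% (interval 7.81% to 20.1%) and 9.84% (interval 8.80% to 11.0%), again overlapping. The GC box GGGCGG behaved differently, with SBNO1 peaks at 30.0% of genes with a match and 18.8% of those without. TAF4 peaks were listed at 38.6% and 21.1% of them, respectively. The GC box was found in 82.8% of promoters of 60% GC or more and in 61.6% of all promoters. Its shares were not split by GC class, so the part of GC content in them was not tested. These counts concern promoter windows around the canonical TSS and not the windows at peak centres.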
